A study of Mus musculus with 6 samples.

Results

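The vomeronasal receptor cluster probes were the 657 non-control array probes, of 174638 in all, whose mm9 start lay in 1 of 3 genome intervals named for vomeronasal receptor genes. The interval on chromosome 7 ran from 21200000 to 24600000 and held 473 probes. The interval on chromosome 17 ran from 18300000 to 20300000 with 88 probes, and the one on chromosome 6 ran from 57100000 to 57700000 with 96 probes. The probes were chosen by position alone, and they were set against the 166460 other autosomal probes of the same arrays. DNA methylation was measured by methylated DNA immunoprecipitation (MeDIP) in the pancreas of mouse offspring aged 12 weeks. DNA pulled down by an antibody against methylated DNA (Cy5) was hybridised with input genomic DNA (Cy3) of the same sample. The series compared 3 arrays of offspring of dams with maternal glucose intolerance (GI1, GI2 and GI3), called hyperglycemic dams in the series text, with 3 arrays of offspring of dams with normal tolerance (NT1, NT2 and NT3). The labels give neither strain, sex nor the way the dams became glucose intolerant, and they leave unsaid whether different animals or litters gave the 3 samples of a group. The p-values below therefore measure only how far these samples spread, and that spread may be technical.

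Vomeronasal receptors are G protein-coupled receptors of sensory neurons in the vomeronasal organ, where they detect pheromones and other chemical cues. The type 1 receptors (Vmn1r genes) and type 2 receptors (Vmn2r genes) lie in large tandem clusters that grew by gene duplication, so that many members are near copies of each other. The pancreas is not a known site of their function. MeDIP recovers DNA by its methylated CpG sites, so a sequence with few CpG sites offers the antibody few targets whatever their methylation. A probe against 1 near copy can also bind DNA of the others, in the input as well as in the pulled-down DNA.

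The array files give mm9 coordinates and no gene for a probe. No mm9 annotation was used here, so the label could not be checked probe by probe and no probe is tied to a gene. As background on the families, RefSeq promoters of build GRCm38.p6 (250 bases before to 50 bases after a gene's start) were read for the same 3 chromosomes. The 115 Vmn1r promoters of chromosome 7 had 83 distinct sequences, and 52 of them were letter for letter the same as another. Their median was 2 CpG, and 93.9% had at most 3 CpG, against a median of 7 CpG and 31.4% over all 32851 promoters. The 31 Vmn2r promoters of chromosome 17 were all distinct, with a median of 1 CpG. The 45 Vmn1r promoters of chromosome 6 had 44 distinct sequences and a median of 1 CpG. CpG was counted as the letters CG, which read the same on both strands. The sequences below show how alike and how poor in CpG such promoters are; each is 300 bases, 5′ to 3′ on the strand of the gene, with each CpG in capitals. The sequence given for Vmn1r111 (chromosome 7, minus strand) is the most shared of the chromosome 7 set and is the same in Vmn1r118, Vmn1r131, Vmn1r138, Vmn1r166 and Vmn1r257. The nearest other sequence is that of Vmn1r242 (minus strand), which differs by A61T, counted from 1 at the 5′ end with the base of Vmn1r111 first. Vmn1r47 (chromosome 6, plus strand) shares its promoter with Vmn1r48, and Vmn2r106 (chromosome 17, minus strand) is the first gene by name with the median CpG count of its set.
Vmn1r111: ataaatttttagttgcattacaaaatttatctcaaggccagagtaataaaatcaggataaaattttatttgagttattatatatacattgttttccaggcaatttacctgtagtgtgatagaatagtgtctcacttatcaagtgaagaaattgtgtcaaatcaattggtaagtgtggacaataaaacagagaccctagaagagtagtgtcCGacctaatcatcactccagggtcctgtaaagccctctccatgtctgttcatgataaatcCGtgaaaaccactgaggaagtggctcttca
Vmn1r242: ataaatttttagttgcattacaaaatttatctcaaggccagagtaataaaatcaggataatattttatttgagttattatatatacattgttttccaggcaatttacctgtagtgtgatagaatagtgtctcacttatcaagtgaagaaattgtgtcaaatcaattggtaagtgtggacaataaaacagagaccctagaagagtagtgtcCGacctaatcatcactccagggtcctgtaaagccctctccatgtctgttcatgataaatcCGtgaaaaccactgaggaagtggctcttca
Vmn1r47: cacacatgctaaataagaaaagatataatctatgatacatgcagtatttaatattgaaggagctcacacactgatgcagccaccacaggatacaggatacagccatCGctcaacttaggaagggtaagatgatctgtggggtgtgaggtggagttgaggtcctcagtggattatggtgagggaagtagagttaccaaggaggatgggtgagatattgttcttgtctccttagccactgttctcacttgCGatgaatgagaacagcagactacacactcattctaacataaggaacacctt
Vmn2r106: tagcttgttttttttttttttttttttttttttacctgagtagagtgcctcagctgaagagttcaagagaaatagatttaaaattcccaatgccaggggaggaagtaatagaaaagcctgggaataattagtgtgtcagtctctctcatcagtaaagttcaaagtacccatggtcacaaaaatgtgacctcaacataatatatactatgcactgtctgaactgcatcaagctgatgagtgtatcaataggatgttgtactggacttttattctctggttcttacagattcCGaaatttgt

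Values are log2 of processed MeDIP over processed input signal, with each array's median over its non-control probes set to 0, and called ratios below. Input and MeDIP signals are also given on their own, as log2 units relative to the median of the other autosomal probes of the array. Among those other autosomal probes the median background-subtracted input signal ranged from 25.1 to 42.4 units on the glucose intolerance arrays and from 54.4 to 94.6 units on the normal tolerance arrays. Input spots were well above background for 71.4% to 79.1% of them with glucose intolerance and for 85.7% to 92.7% with normal tolerance. The scan times in the file headers fell into 3 scans: GI1 to GI3 in the first, NT1 in the second, and NT2 and NT3 in the third. No scan held both groups, so scan and group cannot be told apart. GI2 stood apart in the clusters, as shown next, and group values are therefore given with and without it.

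The ratio of the cluster probes was below that of other autosomal probes on every array. The median over all 657 probes was -2.42, -1.11 and -2.05 on GI1, GI2 and GI3, against -3.54, -2.18 and -2.52 on NT1, NT2 and NT3, where other autosomal probes lay between -0.020 and 0.0058 on the 6 arrays. GI2 was the least depleted array, and the groups overlapped. Most of this came from chromosome 7, where the medians of 473 probes were -3.25, -1.23 and -2.78 with glucose intolerance and -4.25, -2.91 and -3.58 with normal tolerance. They were -1.24, -1.02 and -0.82 against -1.65, -1.39 and -1.11 on chromosome 17. On chromosome 6 they were -0.79, -0.87 and -0.52 against -0.88, -0.73 and -0.56. The order of the intervals, with chromosome 7 lowest and chromosome 6 highest, was the same on all 6 arrays.

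The signal of the 2 dyes split the intervals. Chromosome 7 probes were brighter in the input than other autosomal probes, by 1.37, 1.26 and 0.90 log2 units on GI1 to GI3 and by 2.0, 1.89 and 1.84 on NT1 to NT3. Chromosome 17 probes were dimmer, at -1.38, -1.71 and -2.01 with glucose intolerance and -1.12, -1.48 and -1.29 with normal tolerance. Chromosome 6 probes were dimmer too, at -1.06, -1.12 and -1.44 against -1.04, -1.06 and -1.06. A low ratio so went with a bright input on chromosome 7 and with a dim input on the other chromosomes. Input was well above background on all 6 arrays for 438 of the 657 probes (66.7%, as for 66.7% of other autosomal probes): 370 of 473 on chromosome 7, 27 of 88 on chromosome 17 and 41 of 96 on chromosome 6.

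MeDIP signal was below that of other autosomal probes in all 3 intervals, although on GI2 the chromosome 7 median lay at only -0.056 log2 units relative to theirs. On many spots it was not above background, so that the ratio there is only a bound. It was not well above background on any array for 157 of the 657 probes, and it was so on all 6 arrays for 222. With each dim MeDIP spot set to the smallest signal that counted as well above background on that array, the chromosome 7 medians were -2.37, -1.05 and -1.99 on GI1 to GI3 and -3.54, -2.42 and -2.64 on NT1 to NT3. The chromosome 7 probes thus stayed below other autosomal probes, which had medians of 0.15 to 0.30 under that setting. On chromosome 17 the raised medians were -0.32, -0.11 and 0.33 against -0.63, -0.020 and -0.29, and on chromosome 6 they were 0.23, 0.10 and 0.27 against -0.34, 0.045 and 0.018. On chromosomes 17 and 6 the medians so came closer to those of other autosomal probes. On GI3 both lay above the 0.26 of other autosomal probes. How far these probes lie from the others, and on GI3 on which side, cannot be told from these signals.

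**Figure D1:**
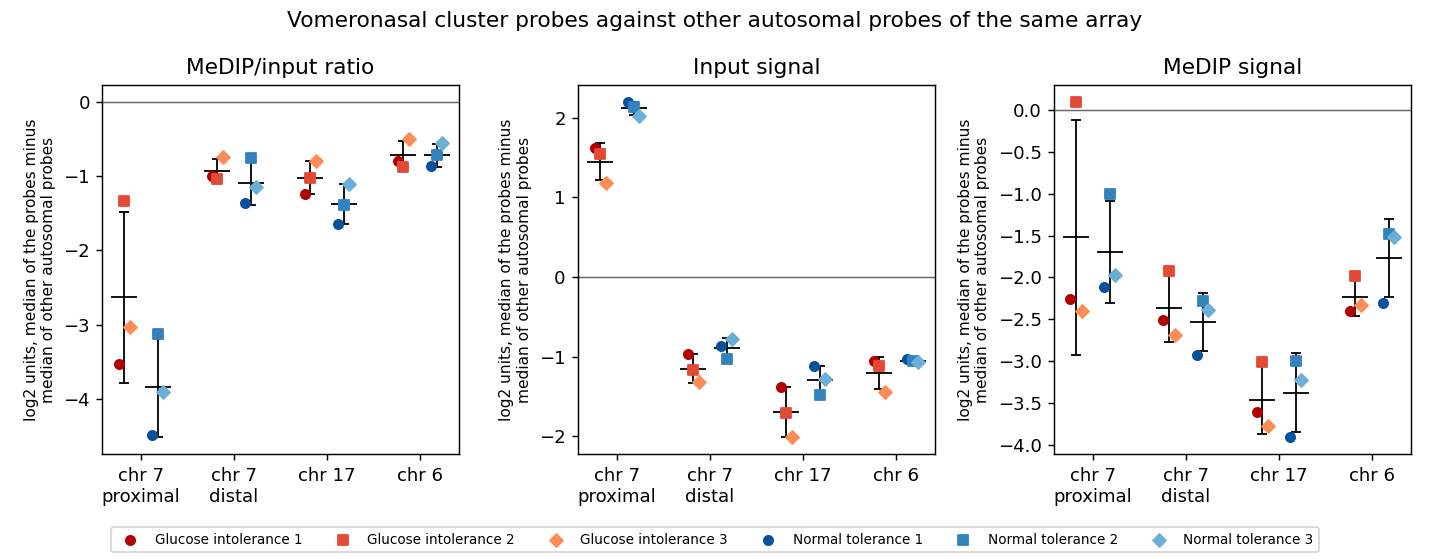
Medians of the cluster probes minus the median of other autosomal probes of the same array (log2 units) for the ratio, the input and the MeDIP signal, with chromosome 7 in its proximal and distal stretch. Points are arrays (red glucose intolerance, blue normal tolerance), and bars give the mean and SD of 3 arrays; the proximal stretch of chromosome 7 is the one set with input above 0, and GI2 is the one array with its MeDIP signal there at 0.10.

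Along chromosome 7 the probes lay in 85 runs of at least 3 probes with starts at most 500 bp apart. A least-squares split of these runs into 2 stretches by their mean input, made from these values and given as a description, put a boundary after the run at 24085770. The proximal stretch held 75 runs and 396 probes from 21253262 to 24086631, and the distal stretch held 10 runs and 77 probes from 24170279 to 24595474. Run means of input were -0.22 to 3.13 proximally, with 65 of 75 runs above the autosomal median on all 6 arrays, and -1.98 to -0.72 distally. The proximal input median was 3.08, 2.91 and 2.27 times that of other autosomal probes on GI1 to GI3 and 4.57, 4.39 and 4.07 times on NT1 to NT3. The distal one was 0.513, 0.445 and 0.40 times on GI1 to GI3 and 0.547, 0.491 and 0.582 times on NT1 to NT3. Since the input values placed the boundary, this gap in input describes the split and is no result. The 3 proximal runs with a mean input below 0 began at 22396501, 22879276 and 23195988.

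The ratio has the input as its denominator, so its values in the 2 stretches are a description too. The proximal median was -3.52, -1.33 and -3.06 on GI1 to GI3 and -4.49, -3.14 and -3.90 on NT1 to NT3. The distal median was -1.0, -1.03 and -0.77 on GI1 to GI3 and -1.38, -0.77 and -1.15 on NT1 to NT3, a level like that of chromosomes 17 and 6. All 75 proximal runs had a mean ratio below 0 on all 6 arrays, from -4.18 to -1.61 as means over the arrays, and so had the 10 distal runs, from -2.13 to -0.30. With dim MeDIP spots raised, not every distal run stayed below 0. The one at 24442127 to 24443573 then had 0.066, -0.14 and 0.39 against -0.29, 0.13 and 0.095. The lowest run mean belonged to 3 probes at 21571420 to 21572089, with ratios of -4.90, -1.70 and -3.57 on GI1 to GI3 and -5.08, -4.55 and -5.26 on NT1 to NT3. The highest proximal run, 5 probes at 22230113 to 22231115, had -1.63, -0.84 and -1.44 against -2.28, -1.74 and -1.73. Even that run lay below the median autosomal probe on each array.

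GI2 differed from the other 5 arrays in the proximal stretch. It had the highest ratio in 74 of the 75 runs, and NT1 had the lowest in 54. The difference lay in the MeDIP channel: the proximal MeDIP median was -2.26, 0.10 and -2.40 log2 units relative to other autosomal probes on GI1, GI2 and GI3, and -2.12, -1.0 and -1.97 on NT1, NT2 and NT3. MeDIP spots there were well above background for 88.1% of probes on GI2, against 43.7% on GI1 and 44.2% on GI3, and 48.2% to 76.3% on the normal tolerance arrays. Its proximal input median, 1.54, lay between the 1.62 of GI1 and the 1.18 of GI3. In each of the 4 corners of the array surface the proximal median of GI2 lay between -1.52 and -1.13, above the other 5 arrays. A highest ratio on GI2 was not particular to the stretch. GI2 also had the highest ratio in the 1 Mb window at 95 Mb of chromosome 5, outside the clusters. It was highest as well for 1000 other autosomal probes with bright input. These were chosen by a mean ratio of -4 to -3 on the other 5 arrays. That choice by itself tends to leave GI2 higher, so they cannot show whether GI2 stood apart in them. Their median was -2.15 on GI2 and -4.13 to -2.84 on the other arrays. The 100 proximal probes in the same range had -1.39 on GI2 and -4.43 to -3.09 on the other arrays. For other autosomal probes chosen at -2 to -1 GI2 was not the highest array, with -1.23 against -1.21 on GI3. The part of GI2 in the group values is shown by leaving it out.

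**Figure D2:**
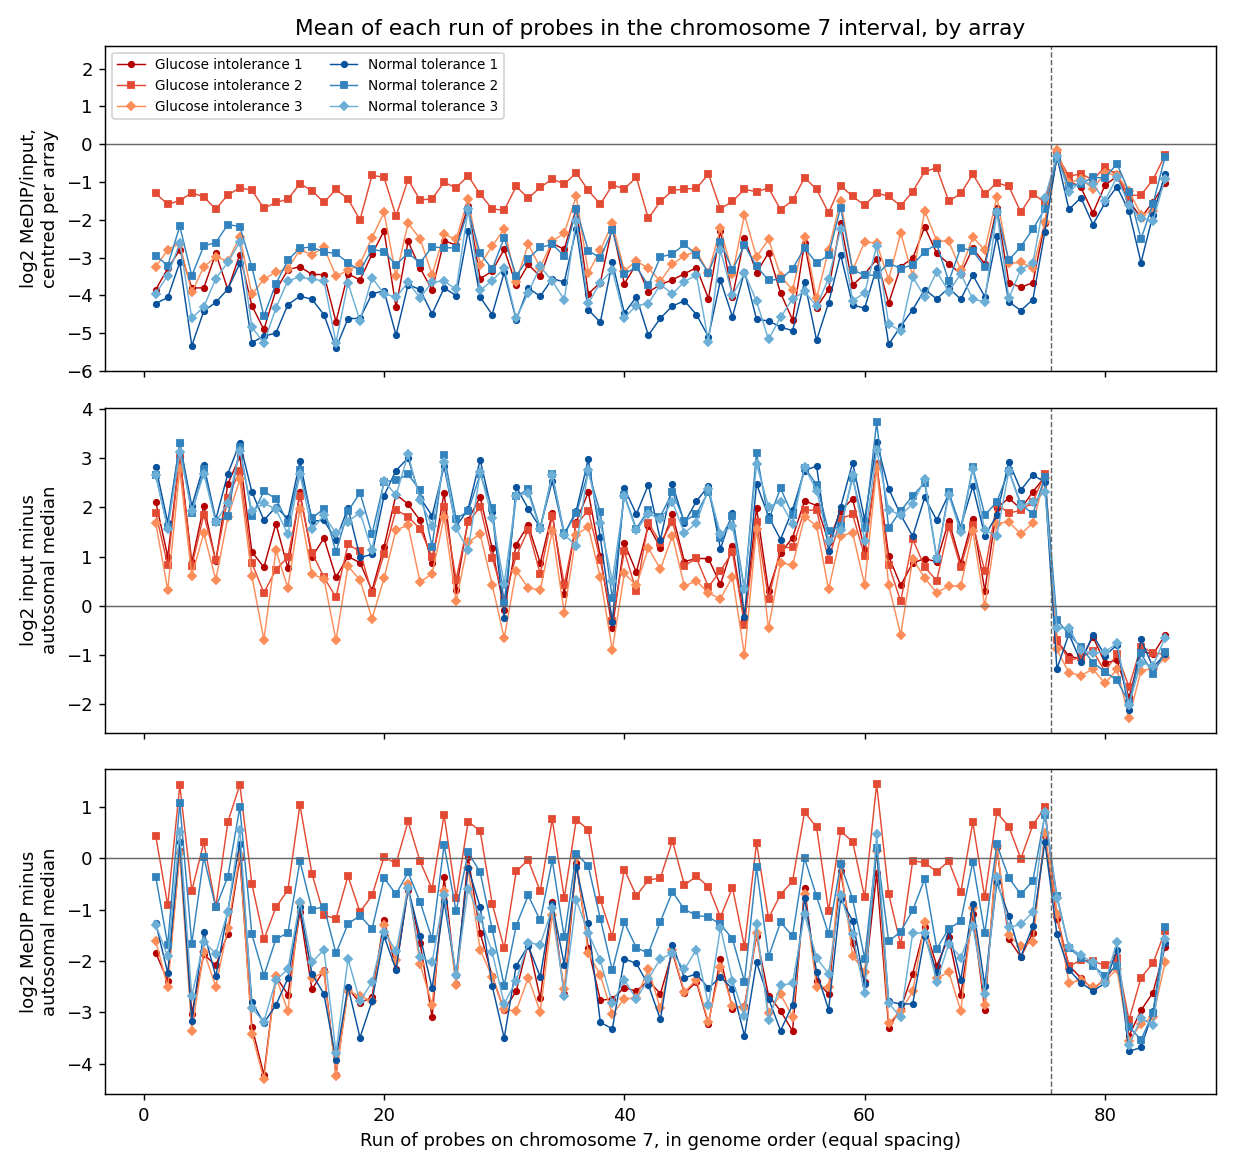
Mean ratio (log2 MeDIP over input), input and MeDIP signal (both relative to the autosomal median) of the 85 runs of the chromosome 7 interval, in genome order at equal spacing, with a line for each array. The dashed line marks the boundary between the 75 proximal and the 10 distal runs. All 10 distal runs have an input below 0, as 3 proximal runs do on average. On the left side GI2 has the highest ratio in 74 of the 75 runs and the highest MeDIP signal in most of them.

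Very low ratios were more frequent among the chromosome 7 probes than among other autosomal probes. A mean ratio under -3 was found for 243 of the 657 cluster probes, 236 of them on chromosome 7 (49.9% of its probes), against 3281 other autosomal probes (1.97%). A mean ratio under -4 was found for 99 chromosome 7 probes (20.9%) and 678 other autosomal probes (0.407%). A bright input did not go with such ratios in general: the 16646 other autosomal probes with a mean input at or above 2.43 log2 units had median ratios of -0.28, -0.47 and -0.32 on GI1 to GI3 and -0.27, -0.61 and -0.63 on NT1 to NT3. Among 1837 windows of 1 Mb with at least 20 probes, those starting at 21, 22 and 23 Mb of chromosome 7 ranked as the 2nd, 4th and 5th lowest by ratio, with means of -3.37, -3.19 and -3.18 over the arrays. The lowest window, at 95 Mb of chromosome 5, lay outside the clusters at -3.62 with an input of 2.25 log2 units above the autosomal median. Bright and depleted stretches were thus not particular to the vomeronasal intervals.

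The limits of the intervals were fixed by position, and the values did not always change there. The 84 probes in the 500 kb before the chromosome 7 interval had median ratios of -3.82, -1.47 and -3.20 on GI1 to GI3 and -4.51, -3.27 and -4.10 on NT1 to NT3, as low as the proximal stretch inside. The 111 probes in the 500 kb after it had -0.65, -0.48 and -0.49 against -0.93, -0.51 and -0.46. Probes flanking the chromosome 17 interval had medians of -1.17 to -0.66 with glucose intolerance and -1.48 to -0.68 with normal tolerance. Those flanking the chromosome 6 interval had -0.93 to -0.37 against -1.44 to -0.32. The depleted block of chromosome 7 so began before the interval and ended inside it.

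Many proximal runs were laid out alike. A layout is the list of distances between the probe starts of a run, and 47 of the 75 proximal runs (62.7%) shared theirs with at least 1 other run of the array. This was so for 0 of the 10 distal runs, 0 of the 12 runs on chromosome 17, 0 of the 13 on chromosome 6 and 1.80% of 21494 other autosomal runs. Of the 47 runs, 36 had a partner inside the stretch, 13 had one elsewhere on chromosome 7 and 0 had one on another chromosome. Whether such runs carry the same probe sequences was not tested, since probe sequences were not used here, so runs of a shared layout may not be independent, although the counts below take each run, region and probe singly.

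Runs that shared a layout differed less, as means over the arrays, than other runs did. Among proximal runs with at least 5 probes, 18 pairs shared a layout, and their mean ratios differed by a median of 0.079 log2 units and their mean inputs by 0.031. The 1752 pairs with different layouts differed by medians of 0.41 and 0.50. The largest gap in ratio among pairs of a shared layout was 0.30, and it was 2.19 among the other pairs. A set of 3 runs of 6 probes, at 21253262, 21452931 and 23442032, shows this array by array. The ratio of the first was -3.85, -1.30 and -3.24 on GI1 to GI3 and -4.22, -2.95 and -3.95 on NT1 to NT3. The second had -3.80, -1.39 and -3.25 against -4.41, -2.69 and -4.30, and the third had -3.73, -1.38 and -3.34 against -4.25, -3.33 and -4.14. The 3 runs lay within 0.12 log2 units on each glucose intolerance array, and within 0.20, 0.64 and 0.35 on NT1, NT2 and NT3. The other set of 3 runs, at 21288143, 21487810 and 23476911, was looser, with ranges of 0.55, 0.13 and 0.39 on GI1 to GI3 and 0.29, 0.86 and 0.46 on NT1 to NT3. In the first set the inputs were 2.11, 2.03 and 2.17 on GI1 and 2.83, 2.85 and 2.91 on NT1.

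**Figure D3:**
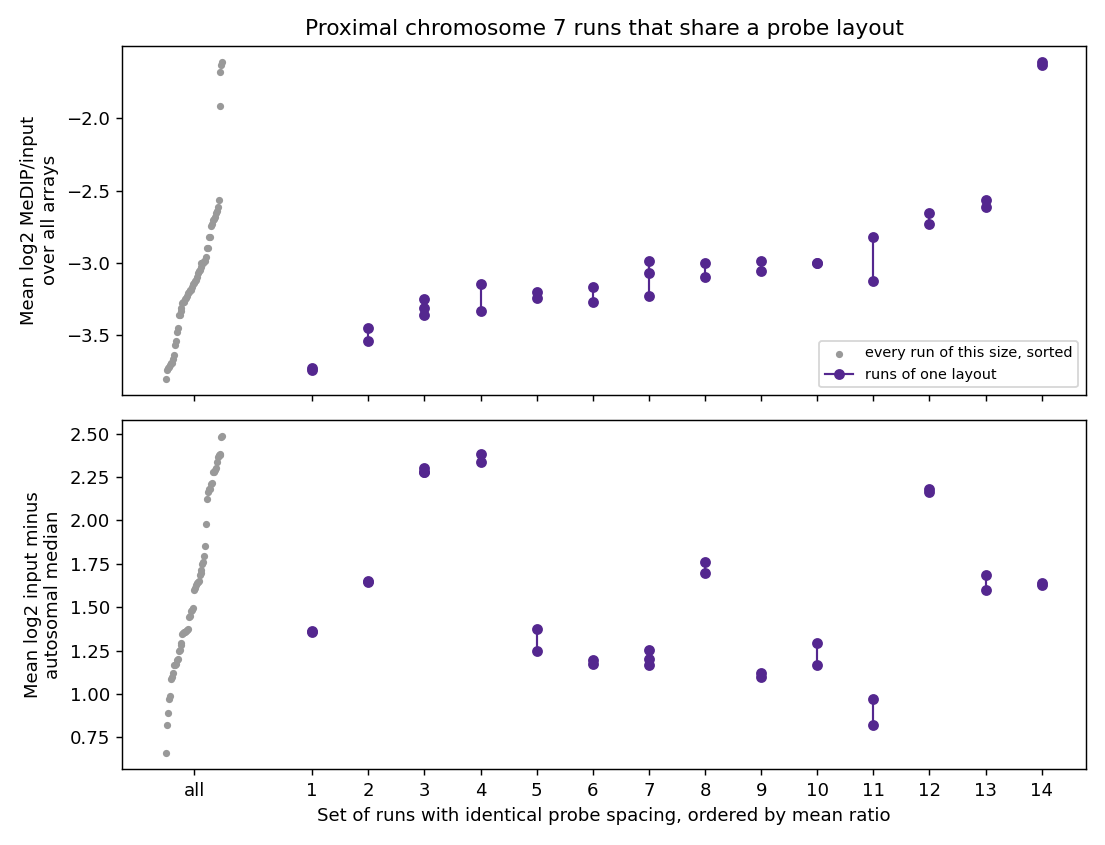
Mean ratio and mean input over the 6 arrays (log2 units) of proximal chromosome 7 runs with at least 5 probes. Grey points at the left are the 60 such runs in sorted order, and each joined set of purple points holds the 2 or 3 runs of a shared layout; gaps within a set are small beside the range of all runs.

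The chromosome 17 interval held 12 runs, and all 12 had a mean ratio below 0 on all 6 arrays, from -2.16 to -0.70 as means over the arrays. The lowest was a run of 7 probes at 19050048 to 19051471, with -2.41, -1.61 and -1.85 on GI1 to GI3 and -3.15, -1.74 and -2.18 on NT1 to NT3, where 11.9% of MeDIP spots were well above background. The highest, 8 probes at 19640550 to 19642198, had -0.46, -0.39 and -0.52 against -1.11, -0.99 and -0.73. In this run the groups did not overlap, with 37.5% of its MeDIP spots above background. Of all 18562 regions, as defined below, 17.5% were higher with glucose intolerance without overlap. Those regions hold only probes with input well above background, and this run is not among them. The share over unfiltered runs was not counted. With dim MeDIP spots raised, this run had 0.546, 0.480 and 0.515 against 0.010, 0.185 and 0.478, so not every run stayed below 0. The lowest run then had -0.65, -0.52 and -0.18 against -1.41, -1.04 and -1.19. No chromosome 17 run had more than 47.6% of its MeDIP spots above background, so the ratios of all 12 rested in part on bounds.

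Chromosome 6 held 13 runs, of which 10 had a mean ratio below 0 on all 6 arrays and 2 had one above 0 on all 6. The first of these 2 runs, 6 probes at 57484988 to 57486113, had ratios of 0.86, 0.88 and 0.68 on GI1 to GI3 and 1.06, 0.66 and 0.78 on NT1 to NT3. The second, 8 probes at 57641583 to 57643195, had 0.59, 0.65 and 0.65 against 0.93, 0.72 and 0.62. MeDIP spots were well above background for 97.2% of spots in the first and 85.4% in the second, so the ratios of the second rested in part on bounds. With dim MeDIP spots raised, the second run had 0.92, 0.93 and 0.92 against 1.21, 1.0 and 0.90, and the values of the first were the same as before. Input was below the autosomal median there, at -0.70 and -1.09 log2 units. Before dim MeDIP spots were raised, they were the only runs of the 110 in the 3 intervals with a positive ratio on every array. The arrays of the groups overlapped in both. Within them the probes varied, as a pair chosen after the values were seen shows. In the second run the probe at 57642731 had 2.09, 1.68 and 2.19 on GI1 to GI3 and 1.43, 1.56 and 1.72 on NT1 to NT3. The probe at 57642393 had -0.79, -1.09 and -0.36 against 0.46, 0.44 and 0.35. The other run not below 0 throughout, at 57530328 to 57531381, lay at -0.065, 0.21 and -0.13 with glucose intolerance and at -0.28, -0.41 and 0.070 with normal tolerance. With dim MeDIP spots raised, not all of the 10 runs below 0 stayed there. The one at 57380385 to 57382116 then had 0.75, 0.28 and 0.94 against 0.28, 0.50 and 0.90.

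**Figure D4:**
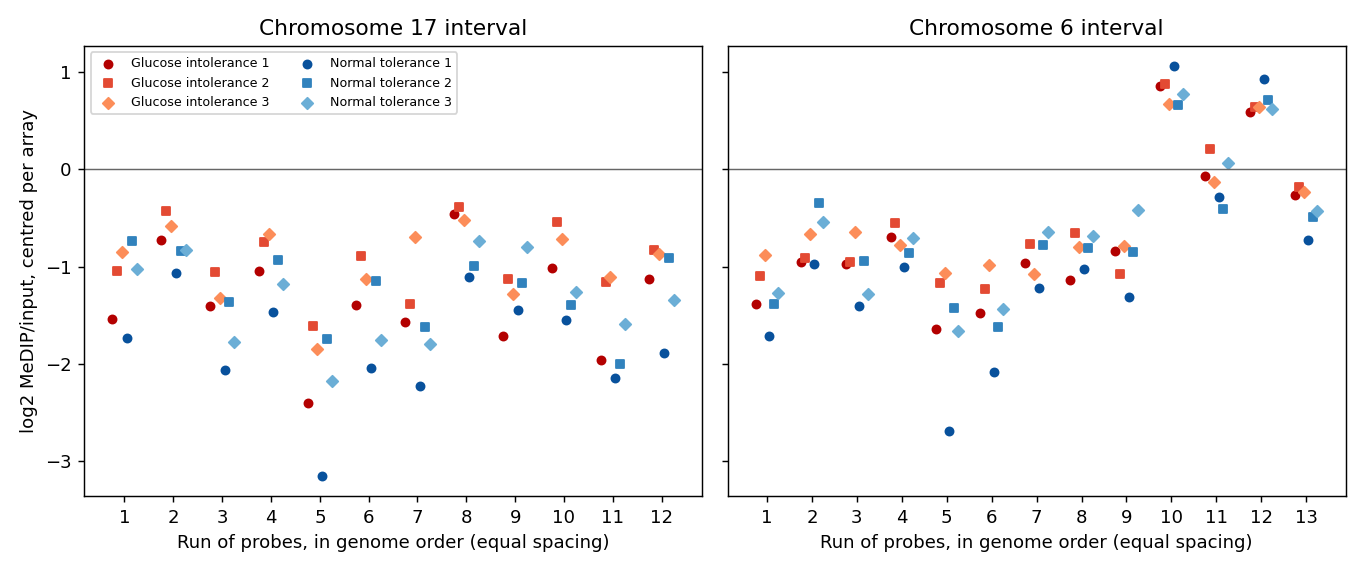
Mean ratio (log2 MeDIP over input) of each run of probes in the chromosome 17 interval (12 runs) and the chromosome 6 interval (13 runs), in genome order, with a point for each array. All chromosome 17 runs lie below 0, and 2 chromosome 6 runs lie above 0 on all 6 arrays. Dim MeDIP spots are not raised here.

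The series asks whether maternal glucose intolerance goes with altered methylation in the offspring pancreas. In the proximal stretch of chromosome 7 the ratio was less negative with glucose intolerance, and the input was lower. The mean of the array medians of the ratio, relative to other autosomal probes, was -2.63 ± 1.15 on the glucose intolerance arrays and -3.84 ± 0.68 on the normal tolerance arrays (SD, n = 3 each), which differed by 1.2, or by 0.56 without GI2. Groups overlapped in this ratio. Input was 1.45 ± 0.24 with glucose intolerance and 2.12 ± 0.085 with normal tolerance, a difference of -0.67 (-0.72 without GI2), and here the arrays of the groups did not overlap. MeDIP signal was -1.52 ± 1.41 and -1.69 ± 0.61, a difference of 0.17 that turned to -0.64 without GI2. The input difference was as large without GI2, and the sign of the MeDIP difference depended on GI2. The lower input brightness of the glucose intolerance arrays and the scan moved with the group, and their part in this difference was not tested.

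In the other stretches the groups were closer. The distal stretch of chromosome 7 had ratios of -0.93 ± 0.16 with glucose intolerance and -1.09 ± 0.30 with normal tolerance. The chromosome 17 interval had -1.02 ± 0.22 against -1.38 ± 0.27, a difference of 0.36 (0.36 without GI2), and the chromosome 6 interval had -0.72 ± 0.20 against -0.72 ± 0.15. On chromosome 17 the groups overlapped, and the difference turned to -0.10 with signals from which no background was subtracted.

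A region below is a run of at least 3 probes whose input was well above background on all 6 arrays, with its value the mean over these probes. Of 18562 regions of the whole array, 67 lay in the clusters: 61 on chromosome 7, 3 on chromosome 17 and 3 on chromosome 6. No region of the clusters passed an adjusted p of 0.05 in limma (0 of 67, and 0% of all 18562 regions), and the lowest adjusted p was 0.168. An unadjusted p under 0.05 was reached by 16 of 67 (23.9%), against 15.8% of all regions. All 16 were higher with glucose intolerance, as were 13.3% of all regions, and 0 were lower, as were 2.51% of all. The share depended on single arrays: it was 12 of 67 (17.9%) without GI2, against 9.06% of all regions, and 34 of 67 (50.7%) without GI1, against 12.5%. Without NT1 it was 10 of 67 (14.9%), below the 27.8% of all regions. Where scan entered as a random block it was 8 (11.9%, against 5.21% of all regions), and 0 regions passed the adjusted threshold.

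The cluster regions leaned to higher ratios with glucose intolerance beyond the lean of the whole array. Over all regions the median difference, glucose intolerance minus normal tolerance, was 0.12 log2 units, a shift that became -0.0034 with loess normalization. Over the 67 cluster regions it was 0.92, which is 0.80 beyond the shift. Of the 67 differences 65 were above 0 (61 to 66 under the other scalings and background corrections, and 59 without NT1). The direction rested partly on GI2: without it 47 of 67 were above 0 and the median was 0.22, beside a median of 0.11 over all regions. Other bright and depleted probes were set beside them. These were 1000 other autosomal probes with a mean ratio of -4 to -3 on the arrays other than GI2. Their input was more than 1 log2 unit above the autosomal median. They had median ratios of -3.61, -2.15 and -3.03 on GI1 to GI3 and -4.13, -2.84 and -3.45 on NT1 to NT3. The 100 proximal probes in that range had -3.54, -1.39 and -3.09 against -4.43, -3.11 and -3.88. Both sets were chosen by the arrays other than GI2, which by itself tends to leave GI2 higher. They therefore cannot show whether other depleted probes leaned the same way. Without GI2 the groups overlapped in both sets. How far the lean goes with depletion was not tested. The median cluster difference was -0.61 in the input channel, where 64 of 67 regions were lower with glucose intolerance, and 0.15 in the MeDIP channel, where 44 of 67 were higher. The shares of all regions above 0 in the ratio, lower in the input or higher in MeDIP were not counted. These 3 counts so describe the cluster regions alone. Groups did not overlap in 14 of 67 regions, all higher with glucose intolerance, against 17.5% of all regions that were higher without overlap and 4.55% that were lower. The 16 regions with an unadjusted p under 0.05 include both members of the same-layout pairs at 21946210 and 23655249, at 22616365 and 23839554, and at 22230113 and 22712919.

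The 5 regions with the lowest p among those higher with glucose intolerance lay on chromosomes 17 and 7, and none passed the adjusted threshold. The region at 23223573 to 23224328 on chromosome 7 (3 probes) had ratios of -2.75, -1.19 and -2.56 on GI1 to GI3 and -4.73, -3.81 and -5.57 on NT1 to NT3. Its difference was 2.54 with an SE of 0.51 (limma, adjusted p = 0.212), or 2.05 without GI2 and 1.6 with the values of the authors' deposited table. MeDIP spots were above background on 4 of 9 spots of the glucose intolerance arrays and 3 of 9 of the normal tolerance arrays, and most of the difference lay in the input, at -2.19 against 0.22 for MeDIP. The groups did not overlap on this region, which had the largest difference of the 67.

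The regions at 23655249 to 23656227 (4 probes) and at 21946210 to 21947618 (5 probes) belong to runs of the same layout, so they may not be independent. The first had -1.82, -0.67 and -1.63 on GI1 to GI3 and -3.33, -2.51 and -3.80 on NT1 to NT3, a difference of 1.84 (SE 0.38). The second had -2.29, -0.87 and -1.81 against -3.88, -2.84 and -3.96, a difference of 1.90 (SE 0.40). Both had an adjusted p of 0.212 in limma, groups that did not overlap, and differences of 1.49 and 1.51 without GI2. The input differences were -1.51 and -1.47 log2 units, and the MeDIP differences were 0.21 and 0.31. MeDIP spots were above background on 11 of 12 and 13 of 15 spots of the glucose intolerance arrays and on 10 of 12 and 10 of 15 of the normal tolerance arrays, so these ratios were mostly measured.

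The region at 22056190 to 22057612 (5 probes) had -2.57, -0.94 and -2.09 against -3.72, -2.88 and -3.65, a difference of 1.55 (SE 0.40, limma adjusted p = 0.22), which was 1.09 without GI2. MeDIP was above background on 14 of 15 spots in each group. The lowest p of all belonged to the chromosome 17 region at 19796606 to 19797550 (3 probes), with -0.64, -0.058 and -0.51 on GI1 to GI3 and -1.66, -1.52 and -1.80 on NT1 to NT3. Its difference of 1.26 was 1.08 without GI2, 0.89 with dim MeDIP spots raised and 0.64 without the input filter. It was 0.53 with normexp background correction and 0.41 with the values of the authors' deposited table. MeDIP was above background on 7 of 9 spots with glucose intolerance and 6 of 9 with normal tolerance. Its 3 probes differed by 0.19 to 2.29, and the largest difference, of probe Ch_220697_0052815 described below, rested mostly on bounds. The region lies inside a run of 7 probes at 19796358 to 19797827, where the 4 probes left out for dim input are counted too. That run had -1.01, -0.54 and -0.72 against -1.55, -1.39 and -1.26, and the groups did not overlap there either.

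Only 2 of the 67 regions were lower with glucose intolerance, both by less than their spread. At 57207578 to 57208501 on chromosome 6 (4 probes) the ratio was -0.78 ± 0.11 on the glucose intolerance arrays and -0.68 ± 0.13 on the normal tolerance arrays (SD, n = 3 each). At 24085770 to 24086631 on chromosome 7 (4 probes), the last proximal run, it was -1.90 ± 0.31 against -1.82 ± 0.46. Their adjusted p in limma was 0.734 and 0.883. All MeDIP spots of the chromosome 7 region were above background, and its run was the one of the 75 in which NT3 and not GI2 had the highest ratio, with -2.09, -1.54 and -2.06 on GI1 to GI3 and -2.32, -1.71 and -1.41 on NT1 to NT3.

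The regions with the highest and lowest mean ratio in each interval are given as a description. On chromosome 7 the lowest was at 23248672 to 23249829, with -4.35, -1.69 and -4.08 on GI1 to GI3 and -4.77, -3.61 and -4.58 on NT1 to NT3. Its difference of 0.95 fell to 0.10 without GI2, so that GI2 decided it. The highest, at 24593720 to 24594452 in the distal stretch, had -1.17, 0.020 and -1.40 against -1.23, -0.74 and -1.53. Its difference of 0.31 was -0.12 without GI2. On chromosome 17 the lowest was at 18560588 to 18561256, with -2.36, -1.31 and -2.26 against -3.26, -2.55 and -3.29, and the groups did not overlap (difference 1.06, limma adjusted p = 0.237, 0.72 without GI2, 0.47 without the input filter and 0.55 with the values of the authors' deposited table). The highest there was the region at 19796606 described above. On chromosome 6 the lowest, at 57310881 to 57311786, had -1.58, -0.80 and -0.98 against -2.14, -1.28 and -1.44, and the highest, at 57530328 to 57531063, had -0.085, 0.080 and -0.31 against -0.037, -0.30 and -0.19. The chromosome 6 groups overlapped in both.

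**Figure D5:**
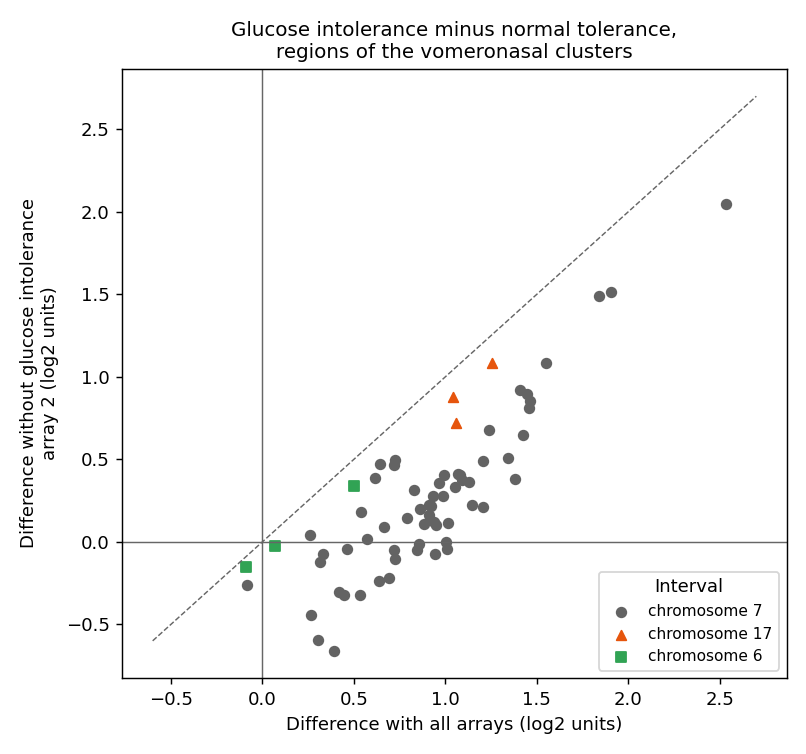
Difference in ratio, glucose intolerance minus normal tolerance (log2 units), of the 67 cluster regions with all arrays (horizontal axis) and without GI2 (vertical axis); the dashed line marks equal values. All points but the 2 regions below 0 lie right of 0, 47 of 67 lie above 0 on the vertical axis, and every region lies below the dashed line.

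Of 113885 probes tested singly, 436 lay in the clusters. In limma 0 of the 436 passed an adjusted p of 0.05, as did 0.000878% of all probes, and the lowest adjusted p was 0.103. An unadjusted p under 0.05 was reached by 103 of the 436 (23.6%), against 16% of all probes. Of these, 98 were higher and 5 lower with glucose intolerance, against 10.4% and 5.59% of all probes. The share was 18.8% without GI2 (82 probes), against 9.95% of all probes, and 37.8% without GI1 (165 probes), against 12.8%. Without NT1 it was 20.6% (90 probes), below the 28.6% of all probes. With scan as a random block it was 11% (48 probes), against 5.26%. Groups did not overlap for 87 probes that were higher and 6 that were lower, against 14.6% and 8.21% of all probes. Adjusted calls appeared under other processing, with 161 of 436 probes under normexp background correction, against 5.35% of all probes, and 57 of 438 with the values of the authors' deposited table, against 5.41%.

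The 3 probes with the lowest p were all higher with glucose intolerance. Probe Ch_220697_0052815 on chromosome 17 (19797492 to 19797550) had ratios of -1.6, -1.16 and -2.20 on GI1 to GI3 and -4.16, -3.64 and -4.03 on NT1 to NT3 (limma, adjusted p = 0.103). Its MeDIP spot was well above background on 1 glucose intolerance array and on no normal tolerance array, so the size of its difference was not measured. The fitted difference of 2.29 was 0.78 with normexp background correction and 0.49 with the values of the authors' deposited table. It lies in the chromosome 17 region described above. Probe Ch_220697_0136451 on chromosome 7 (22973390 to 22973443) had 0.51, 0.85 and 0.32 against -0.77, -0.97 and -1.23, and probe Ch_220697_0136291 (21656269 to 21656322) had 0.30, 0.85 and 0.45 against -0.74, -1.16 and -1.01. Their differences were 1.55 and 1.5 (SE 0.24 each, limma adjusted p = 0.105 each), and 1.40 and 1.34 without GI2. MeDIP was above background on all 6 arrays at both, and the groups did not overlap. These 2 probes stand at the same distance from each other, within 100 bp, as a pair of runs that share a layout. Whether they read copies of the same sequence was not tested.

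The 3 probes with the lowest p in the other direction were Ch_220697_0127348 on chromosome 6 and Ch_220697_0136236 and Ch_220697_0136266 on chromosome 7. The first (57182810 to 57182867) had -0.19, -0.46 and -0.57 on GI1 to GI3 and 0.55, 0.61 and 0.33 on NT1 to NT3, a difference of -0.90 (SE 0.21, limma adjusted p = 0.149). Its MeDIP signal differed by -0.89 and its input by 0.14, so here the difference lay in the MeDIP channel. It was -0.57 with normexp background correction and -0.49 with the values of the authors' deposited table. Its neighbour at 57182490, the brightest input of the chromosome 6 interval at 4.10, had -1.07, -1.30 and -1.01 against -1.29, -1.47 and -1.82, with overlapping groups and the opposite sign. The chromosome 7 probes, at 21315467 to 21315511 and at 21515150 to 21515194, also stand at the distance of runs that share a layout. They had -2.64, -2.06 and -2.66 against -1.78, -1.62 and -0.65, and -2.78, -2.14 and -2.45 against -1.92, -1.80 and -0.81. Both had a very bright input (4.76 and 4.94 log2 units above the autosomal median), which was higher with glucose intolerance by 1.12 and 1.17, and their adjusted p in limma was 0.199 and 0.24. The groups did not overlap at these 2 probes, and their differences were -1.11 and -0.95, or -1.31 and -1.11 without GI2. With normexp background correction they were -0.65 and -0.46.

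The brightest input probes of the other intervals are given as a description. Probe Ch_220697_0136573 on chromosome 7 (23770364 to 23770421), at 5.62 log2 units, had ratios of -5.60 and -3.26 on GI1 and GI2, with the spot of GI3 an outlier and left out, and -5.2, -4.34 and -5.58 on NT1 to NT3. Probe Ch_220697_0052818 on chromosome 17 (19909574 to 19909618), at 2.16, had -1.45, -1.32 and -0.86 against -0.88, -1.61 and -0.80. Groups overlapped in both, and MeDIP was above background on all 6 arrays. The sign of both differences turned under some settings.

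The clusters also bear on values of chromosome 7 as a whole. The mean ratio over all 15704 chromosome 7 probes was -0.37, -0.21 and -0.35 on GI1 to GI3 and -0.56, -0.35 and -0.43 on NT1 to NT3. Without the 473 cluster probes it was -0.28, -0.18 and -0.27 against -0.46, -0.28 and -0.34, where other autosomal probes had -0.15, -0.08 and -0.16 against -0.33, -0.16 and -0.22. The cluster probes, 473 of 15704, so lowered the mean of chromosome 7 on each array, and the remainder was still below that of other autosomal probes on each array.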

How the data were processed

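Both dyes of 6 Agilent arrays were read, 3 per group, with Cy5 on MeDIP DNA and Cy3 on input DNA in all, so a dye effect does not cancel. The deposited scanner files held spot intensity values on mm9 coordinates, made with Feature Extraction 11.0.1.1, per the file headers; processed intensities were background-subtracted and linearly dye-normalized. The deposited log10 ratio served only as a check. The authors also deposited a table taken to be on a log2 scale; its background correction and normalization are not given in the sources used here, and its columns, with medians of 0.027 to 0.038, correlated with unsubtracted ratios at r = 0.925 to 0.936 across probes, which sets its direction.

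Ratios were centred on each array's median, with no loess or quantile step. Outlier spots (1.77%) were left out, and the fits also left out probes whose input was not well above background on all 6 arrays. Probes with at least 2 values per group, and regions of at least 3 such probes at most 500 bp apart, were fitted over the whole array with limma 3.58.1 in R 4.3.3. P-values were adjusted by Benjamini-Hochberg at a threshold of 0.05. Summaries used Python 3.11.15 with numpy 2.4.6, pandas 2.3.3 and matplotlib 3.10.9. The fits were tested on simulated data. The number of arrays limits the precision, and dim MeDIP spots give only bounds.

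Named regions were chosen as the 5 smallest p-values among those higher and among those lower, and the highest and lowest mean ratio per interval; named probes were chosen as the 3 smallest p-values each way and the brightest input per interval. The members and lists were chosen with earlier results of these data known. Normexp used median signals, since mean signals were not used here. A dim MeDIP group was bounded by the smallest signal counted as well above background on each array.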

Additional observations from a re-analysis of the deposited data

How the results depend on the processing

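The cluster probes passing the adjusted threshold, 0 of 436 in the chosen processing, numbered 161 with normexp, 57 of 438 with the deposited table, 13 with quantile normalization, 6 of 210 with both channels above background and 4 with dim MeDIP spots raised. Over all probes these shares were 5.35%, 5.41%, 1.51%, 0.215% and 0.00527%. They numbered 0 to 18 when 1 array was left out, with 18 without NT1, where 3.39% of all probes passed. The regions passing, 0 of 67, numbered 37 with normexp and 13 with the deposited table, against 8.71% and 8.17% of all regions, and 0 whichever array was left out. At an unadjusted p under 0.05 the 103 probes became 253 with normexp, 196 of 655 without the input filter, 66 with both channels above background, 180 with the deposited table, 181 with dim MeDIP raised and 48 with scan as a random block, and 71 to 165 with an array left out. Over all probes the shares were 27.8%, 16.4%, 17.3%, 29.0%, 16.3% and 5.26% in that order, and 8.95% to 28.6% with an array left out. The 16 regions became 58, 46 of 110, 7 of 16, 27, 41 and 8 under these settings in the same order, and 10 to 34 with an array left out. Over all regions the shares were 34.1%, 15.7%, 16.6%, 30.7%, 16.3% and 5.21%, and 8.41% to 27.8% with an array left out. Between arrays of the same replicate number, deviations from the group mean correlated at 0.57, 0.54 and 0.041 over regions. Arrays of different numbers were not compared, so these values cannot tell whether same-numbered arrays are pairs. The labels do not state that replicate numbers pair arrays, so a block for the replicate number was fitted only as an alternative. The replicate block gave 102 of 396 probes and 38 regions passing, against 3.51% and 4.27% of all. At the unadjusted p it gave 203 and 56, against 22.7% and 25.9% of all. The cause of these changes was not tested.

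The chromosome 7 ratio difference of 1.16 was 0.63 with the deposited table and ranged from 0.57 to 1.58 and its input difference of -0.73 from -0.83 to -0.60 with an array left out. On chromosome 17 the ratio difference of 0.36 became 0.61 with input above background on every array, 0.042 with the deposited table and -0.10 with unsubtracted signals, and the input difference of -0.40 became -0.78 with the input filter and 0.15 unsubtracted. On chromosome 6 the ratio difference of -0.0055 became 0.021 against the same chromosome, 0.050 with means, 0.21 with dim MeDIP raised and -0.12 to 0.073 with an array left out, and the input difference of -0.15 became 0.15 unsubtracted.

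Of the named regions, that at 24593720 turned to -0.066 without the input filter and ranged from -0.12 to 0.59 with an array left out. That at 57207578 turned to 0.13 with normexp, 0.18 without the filter, 0.060 with both channels above background, 0.069 with the deposited table and 0.022 with dim MeDIP raised. That at 57530328 turned to -0.052 with normexp, -0.065 with quantile, -0.10 with the deposited table and -0.012 centred on tested probes, and ranged from -0.024 to 0.17 with an array left out. That at 24085770 turned to 0.21 with normexp and ranged from -0.33 to 0.12. Probe Ch_220697_0136573 turned to -0.20 with quantile and ranged from -0.56 to 1.78, and probe Ch_220697_0052818 turned to 0.059 with normexp and 0.098 with the deposited table and ranged from -0.36 to 0.037. Over the named regions and alternatives, 159 kept direction and side of the threshold, 22 newly passed and 16 turned; for named probes the counts were 126, 19 and 6. Raising dim MeDIP spots and keeping outlier spots in the levels were chosen after seeing the data. Dim MeDIP spots limit the ratios of all but the 222 probes with MeDIP above background on all 6 arrays.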
